A study of Mus musculus with 7 samples.

Results

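The alanine tRNAs with the anticodons TGC and CGC (T in these names stands for U in the RNA) were followed across oligodendrocyte progenitor cells (OPCs), oligodendrocytes (OLs) and astrocytes. Every row named for either anticodon was taken, which gave 14 isodecoder rows of 217 (7 for each anticodon) and 2 anticodon pools of 52. The rows were chosen by name, but the family was picked with the measured difference of Ala-TGC-6 and Ala-TGC-7 between OLs and astrocytes already known, so that contrast is given as a description with no test.

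Mature tRNAs were sequenced by QuantM-seq, in which an adapter pairs with the free ends of deacylated tRNA before ligation. The 7 libraries came from cultured 129S/SvEv mouse cells: 3 of OPCs derived from epiblast stem cells and kept in bFGF and PDGFA, 2 of OLs labelled as differentiated with T3, the thyroid hormone, and 2 of astrocytes labelled as differentiated with BMP4. OLs and astrocytes were both made from OPCs, with other supplements besides (noggin, IGF-1, cyclic AMP and NT3 for OLs and bFGF, Hb-EGF, CNTF and N-acetyl-cysteine for astrocytes), and the study states that OL cultures still held undifferentiated OPCs. The 2 OL libraries came from cultures differentiated from 2 of the 3 OPC replicates, which the fits below treat as independent. Between 1339021 and 2627351 reads per library were assigned to tRNAs, and messenger RNA markers of the cell types were not measured in these tables.

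Alanine is brought to the ribosome by tRNAs with 3 anticodons. Ala-AGC, whose first base is changed to inosine, reads the codons GCU and GCC. Ala-TGC reads GCA and also GCG by wobble, and Ala-CGC reads GCG. Isodecoders are tRNAs with the same anticodon but a different body, so the isodecoders of 1 pool deliver the same amino acid to the same codons.

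Neither pool and none of the 14 isodecoders changed from OPCs at the test's threshold. Ala-TGC-6 and Ala-TGC-7 averaged 0.482 and 0.432 of their OPC level in astrocytes and were near it in OLs. In the Ala-CGC pool, Ala-CGC-1 and Ala-CGC-2 were close to even in OPCs, while Ala-CGC-2 made up 59.8% ± 0.535 (SD, n = 2) of the pool in OLs.

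RefSeq on GRCm38.p6 lists 11 Ala-TGC genes and 9 Ala-CGC genes in the mouse, each 72 bases long. Of these 20 genes, 12 lie on chromosome X between 136357602 and 136590436, a stretch of 232.8 kb that holds 7 Ala-TGC and 5 Ala-CGC genes. By position 17 of the 20 are intergenic and 3 lie in introns, of 4930555B11Rik on chromosome 2, Oprd1 on chromosome 4 and Trim7 on chromosome 11. The names in the expression files follow another numbering than RefSeq, so no isodecoder was tied to 1 of these genes.

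RPM, the unit of level here, is the number of reads of a tRNA among 1000000 tRNA reads of its library, mitochondrial ones included. Levels were not scaled by length, since the 20 RefSeq genes all have the same length. The row names of the levels hold 21 gene copies, with 10 for Ala-CGC against 9 RefSeq genes. The length of each copy in the row names was thus not checked. For most alanine tRNAs the study reports a D-loop signature of mismatches or stops in reverse transcription. It was present in OPCs and astrocytes and reduced in OLs. Whether that signature alters the reads counted for each isodecoder was not tested. The Ala-TGC pool was 17th of 52 anticodons by mean level over the 7 libraries and the Ala-CGC pool 37th. Ala-AGC, the most abundant of the 3, was number 3.

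The Ala-TGC pool stood at 20058, 19344 and 18878 RPM in OPCs, 18871 and 18918 RPM in OLs, and 16628 and 17881 RPM in astrocytes. Both astrocyte libraries were below all OPC libraries, and the OL libraries lay at the low end of the OPC range, 1 just inside it and 1 just below. The Ala-CGC pool stood at 4051, 3777 and 3688 RPM in OPCs, 3868 and 4278 RPM in OLs, and 3273 and 3694 RPM in astrocytes. Its 3 groups overlapped, except that OLs were above astrocytes.

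Neither pool passed the test in either comparison. The test was limma on log2(RPM + 1), with p-values adjusted by Benjamini-Hochberg over all tRNAs of the table and a threshold of 0.01. From OPCs to OLs, the log2 change of the Ala-TGC pool was -0.040 (SE 0.036, 95% interval -0.14 to 0.057, limma adjusted p = 0.422) and that of the Ala-CGC pool was 0.085 (SE 0.087, 95% interval -0.15 to 0.32, limma adjusted p = 0.473). From OPCs to astrocytes, the log2 change of the Ala-TGC pool was -0.17 (SE 0.058, 95% interval -0.33 to -0.017, limma adjusted p = 0.351). That of the Ala-CGC pool was -0.14 (SE 0.11, 95% interval -0.43 to 0.15, limma adjusted p = 0.489). The intervals are not adjusted for the number of pools tested. Of all 52 pools, 0% were called from OPCs to OLs and 0% from OPCs to astrocytes. At an unadjusted p under 0.05 limma counted 0 of the 2 alanine pools against 25% of all pools in the first comparison, and 1 of 2, Ala-TGC, against 11.5% in the second. Because RPM is a share of a bulk culture's tRNA, fewer cells of a type and less of a tRNA per cell cannot be told apart.

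The shares of the 3 alanine anticodons lay close together in the 3 cell types. Ala-TGC held 21.9% ± 1.06 (SD, n = 3) of the alanine tRNA of OPCs, 22.2% ± 0.506 (SD, n = 2) of that of OLs and 21.4% ± 0.0789 (SD, n = 2) of that of astrocytes. Ala-CGC, the rarest of the 3, held 4.33% ± 0.294, 4.77% ± 0.223 and 4.32% ± 0.132 in the same order. Ala-AGC took up the rest, with 73.8%, 73.1% and 74.3%. Neither share was called by limma, with log2 changes from OPCs to OLs of 0.018 for Ala-TGC (95% interval -0.12 to 0.15, limma adjusted p = 0.887) and 0.14 for Ala-CGC (95% interval -0.040 to 0.32, limma adjusted p = 0.219). From OPCs to astrocytes they were -0.033 (95% interval -0.17 to 0.11) and -0.0025 (95% interval -0.18 to 0.18). Of the 39 anticodon shares tested, limma called 0% in both comparisons, and at an unadjusted p under 0.05 it counted 30.8% in the first and 15.4% in the second, with 0 of the 2 alanine shares in each.

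Within each pool a few isodecoders carried most of the reads. Ala-TGC-2/3, a row that joins 2 tRNAs of identical sequence, was the most abundant isodecoder of either anticodon with a mean of 8803 RPM over the 7 libraries, 32nd of 217. Ala-TGC-4 followed with 5382 RPM, Ala-TGC-1 with 2885 RPM and Ala-TGC-6 with 1517 RPM. Ala-TGC-7 and Ala-TGC-5 were far lower, at 44.0 and 19.3 RPM.

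The Ala-CGC pool was carried by a pair, Ala-CGC-2 with a mean of 1954 RPM and Ala-CGC-1 with 1829 RPM. Together they held 99.4% of the pool in OPCs, 99.4% in OLs and 99.6% in astrocytes. The remaining 5 Ala-CGC isodecoders and Ala-TGC-8 averaged under 10 RPM, with 0 to 18 reads in a library. The counting floor of 3 reads is worth 1.14 RPM in the deepest library and 2.24 RPM in the shallowest, and it covers counting error only. The row names join gene copies of identical sequence, and level did not follow the number of copies in every row. Ala-TGC-5 and Ala-CGC-3, each from 3 copies, averaged 19.3 and 5.85 RPM, while Ala-TGC-4, from 1 copy, averaged 5382 RPM. Other rows went the other way. Ala-TGC-2/3, from 2 copies, averaged 8803 RPM, and Ala-TGC-8, Ala-CGC-4, Ala-CGC-5, Ala-CGC-6 and Ala-CGC-7, each from 1 copy, averaged under 10 RPM. A relation of level to copies over all rows was not tested.

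**Figure D1:**
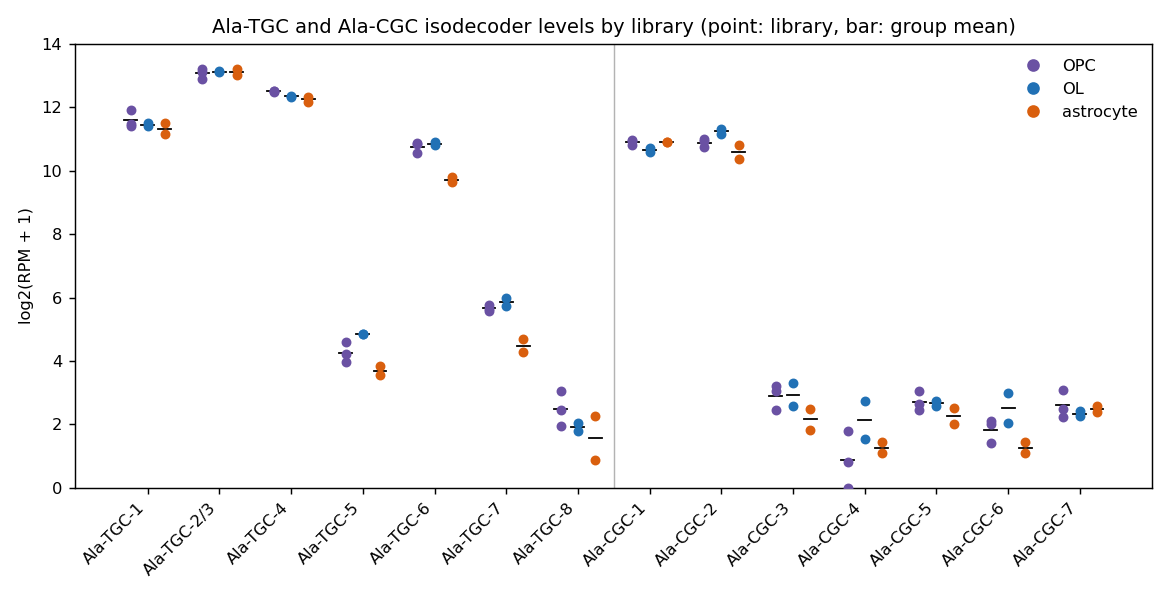
Levels of the 14 isodecoders as log2(RPM + 1), with 1 point for each library in purple (OPC), blue (OL) or orange (astrocyte) and a bar at the group mean of the log2 values. In all, 6 isodecoders lie above 100 RPM in every group and 6 average under 10 RPM; Ala-TGC-6 and Ala-TGC-7 are lower in both astrocyte libraries than in all others.

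The most abundant isodecoder, Ala-TGC-2/3, was at 9513, 8790 and 7595 RPM in OPCs, 9025 and 8864 RPM in OLs and 8279 and 9556 RPM in astrocytes. All 3 groups overlapped. Its log2 change was 0.057 (SE 0.11) from OPCs to OLs and 0.049 (SE 0.13) from OPCs to astrocytes, and the first turned negative, at -0.0045, under median-of-ratios scaling.

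Ala-TGC-1 was at 2718, 2868 and 3849 RPM in OPCs, 2713 and 2891 RPM in OLs and 2895 and 2265 RPM in astrocytes. OPC replicate 3 was high for Ala-TGC-1 and low for Ala-TGC-2/3, and without it the log2 change of Ala-TGC-1 from OPCs to OLs went from -0.15 to 0.0044. That library held 20.4% of its Ala-TGC reads in Ala-TGC-1, against 13.5% and 14.8% in the other OPC libraries.

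Ala-TGC-4 was at 5908, 5756 and 5838 RPM in OPCs, 5242 and 5166 RPM in OLs and 4631 and 5130 RPM in astrocytes. All 4 libraries of differentiated cells were below all 3 OPC libraries, and the group means came to 0.892 of the OPC mean in OLs and 0.836 in astrocytes. Neither difference passed the test, with log2 changes of -0.16 in OLs (SE 0.077, limma adjusted p = 0.188) and -0.26 in astrocytes (SE 0.11, limma adjusted p = 0.221).

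Between OPCs and OLs, 0 of the 14 isodecoders were called by limma, against 5.73% of the 192 tested, namely those that averaged 1 RPM or more, all 14 among them. At an unadjusted p under 0.05 limma counted 2 of 14, Ala-CGC-1 and Ala-CGC-2, against 32.8% of all. For 4 of 14, or 28.6%, OPC and OL libraries were apart, against 53.1% of all. The median log2 change of the 14 was 0.044 and that of all isodecoders 0.089.

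Those 4 were Ala-CGC-2 and Ala-TGC-5, higher in OLs, and Ala-CGC-1 and Ala-TGC-4, lower in OLs. The pair that makes up nearly all of the Ala-CGC pool thus lay on opposite sides of OPCs. Ala-CGC-2 was at 2043, 1951 and 1712 RPM in OPCs and at 2300 and 2576 RPM in OLs. Both OL libraries were above the highest OPC library, by 0.36 on the log2 scale between group means (SE 0.12, limma adjusted p = 0.0760).

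Ala-CGC-1 was at 1987, 1804 and 1955 RPM in OPCs and at 1546 and 1675 RPM in OLs. Both OL libraries were below the lowest OPC library, and the log2 change was -0.25 (SE 0.11, limma adjusted p = 0.150). In astrocytes Ala-CGC-1 was at 1938 and 1899 RPM, inside the OPC range. Ala-CGC-2 was at 1319 and 1780 RPM there, 1 library below the OPC range and 1 inside it.

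**Figure D2:**
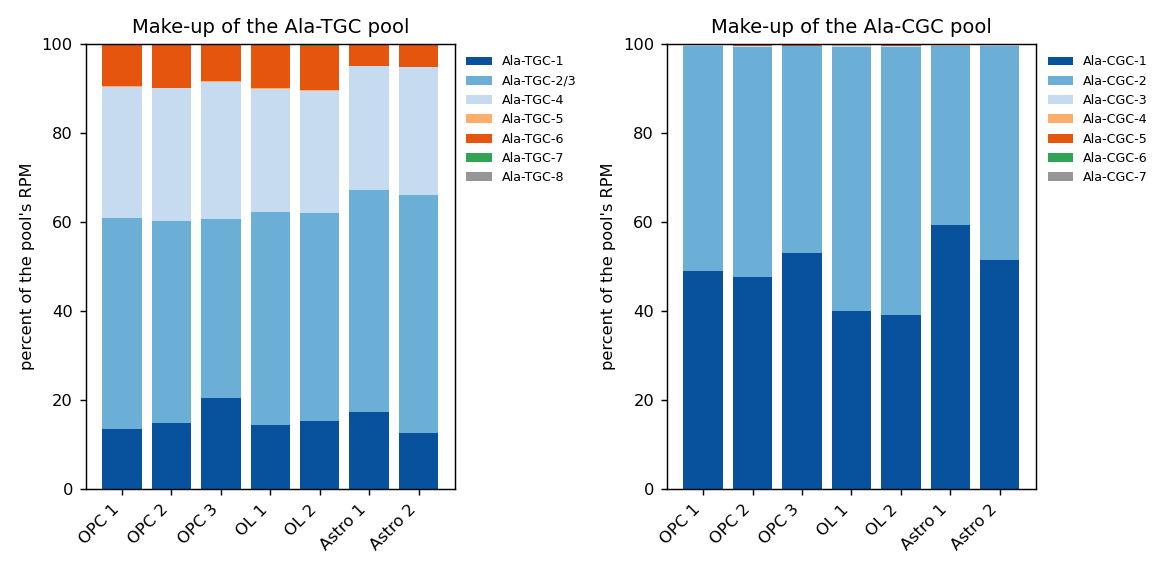
Percent of each pool's RPM held by each isodecoder in the 7 libraries, for Ala-TGC on the left and Ala-CGC on the right. Ala-CGC-1 holds 47.8 to 53.0% of its pool in OPCs and 39.1 to 40.0% in OLs, and Ala-TGC-6 holds 8.06 to 10.1% of its pool in OPCs and OLs against 4.77 and 4.97% in astrocytes.

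Taking each isodecoder as a share of its own pool sets aside any change of the pool. Ala-CGC-1 held 49.1, 47.8 and 53.0% of its pool in OPCs, 40.0 and 39.1% in OLs, and 59.2 and 51.4% in astrocytes. Ala-CGC-2 held nearly all of the rest, from 46.4 to 51.6% in OPCs, 59.5 and 60.2% in OLs, and 40.3 and 48.2% in astrocytes. The pool was thus near an even split in OPCs and leaned to Ala-CGC-2 in both OL libraries.

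The log2 change of the share from OPCs to OLs was -0.33 for Ala-CGC-1 (SE 0.058, limma adjusted p = 0.0421) and 0.27 for Ala-CGC-2 (SE 0.059, limma adjusted p = 0.0567). At the threshold of 0.01 limma called 0 of the 14 shares, against 2.17% of the 184 shares tested. At 0.05 it called 1 of 14, Ala-CGC-1, against 14.1% of all, and at an unadjusted p under 0.05 it counted 4 of 14 against 31% of all. The shares of Ala-CGC-1 and Ala-CGC-2 sum to nearly the whole pool and are not separate evidence.

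Ala-CGC-2 per Ala-CGC-1 came to 1.03, 1.08 and 0.876 in OPCs, 1.49 and 1.54 in OLs, and 0.681 and 0.937 in astrocytes. This ratio was formed after the values were seen. Its log2 difference was 0.61 between OLs and OPCs, with an exact two-sided permutation p = 0.2, and -0.31 between astrocytes and OPCs, with an exact permutation p = 0.4. Adjusted over these 2 tests the permutation p was 0.4 for both. With 10 splits the test as run could give no p under 0.2. It could thus not pass the threshold used here whatever the values, and nothing is read from it.

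Ala-TGC-5 was a rare isodecoder whose 3 groups were apart, at 23.2, 14.6 and 17.7 RPM in OPCs, 27.7 and 28.0 RPM in OLs, and 10.7 and 13.3 RPM in astrocytes. These values rest on 22 to 45 reads in a library. For Ala-TGC-5 the log2 change was 0.59 in OLs (SE 0.28, limma adjusted p = 0.188) and -0.57 in astrocytes (SE 0.31, limma adjusted p = 0.310), both from OPCs. Of the 192 isodecoders 2.08% had both OL libraries above and both astrocyte libraries below all OPC libraries.

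Between OPCs and astrocytes, 0 of the 14 isodecoders were called by limma at 0.01, against 0% of the 192 tested. At a threshold of 0.05 limma called 2 of 14, Ala-TGC-6 and Ala-TGC-7, both lower in astrocytes, against 7.29% of all. At an unadjusted p under 0.05 it counted 3 of 14, with Ala-TGC-4, against 20.8% of all. This comparison uses the astrocyte libraries of the contrast in which Ala-TGC-6 and Ala-TGC-7 were known to differ. It is thus not independent of the choice of these tRNAs. The same holds for the comparison of OPCs and OLs, which uses the OL libraries of that contrast.

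Ala-TGC-6 was at 1845, 1860 and 1522 RPM in OPCs, 1807 and 1903 RPM in OLs, and 793 and 888 RPM in astrocytes. The lowest OPC library was well above the highest astrocyte library, and OLs lay within or just above the OPC range. The astrocyte mean was 0.482 of the OPC mean (log2 change -1.05, SE 0.15, limma adjusted p = 0.0197). The call at 0.01 changed with several settings: the limma adjusted p was 0.00989 with OPC replicate 1 left out, 4.12e-08 with OPC replicate 3 left out and 0.00247 with all 7 libraries in the fit. It ran from 4.12e-08 to 0.0850 across the alternative settings, while the log2 change stayed between -1.14 and -0.97. The smallest of these p-values rest on few libraries and on a spread that limma borrows from the other tRNAs.

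Ala-TGC-7 was at 47.0, 49.0 and 53.4 RPM in OPCs, 52.2 and 62.9 RPM in OLs, and 18.3 and 24.7 RPM in astrocytes. It was far less abundant than Ala-TGC-6, with 43 to 130 reads in a library, and had the same order of group means. Its astrocyte mean was 0.432 of the OPC mean (log2 change -1.19, SE 0.25, limma adjusted p = 0.0259). Without OPC replicate 3 the limma adjusted p was 0.00650, and across the alternative settings it ran from 0.000471, with the replicate number as a term, to 0.167. From OPCs to OLs the log2 change was 0.096 for Ala-TGC-6 (SE 0.13, limma adjusted p = 0.617) and 0.20 for Ala-TGC-7 (SE 0.21, limma adjusted p = 0.524).

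**Figure D3:**
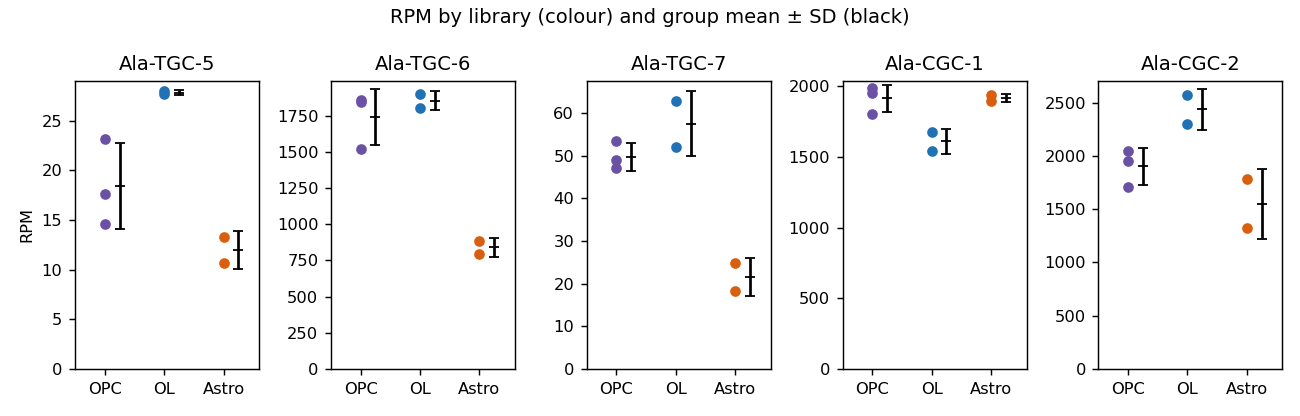
RPM of 5 isodecoders in each library (coloured points; OPC n = 3, OL n = 2, astrocyte n = 2) with the group mean ± SD in black, each panel on its own linear axis from 0. Ala-TGC-6 and Ala-TGC-7 are low in astrocytes and alike in OPCs and OLs; Ala-CGC-1 is low and Ala-CGC-2 high in OLs.

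As a share of the Ala-TGC pool, Ala-TGC-6 was at 9.20, 9.61 and 8.06% in OPCs, 9.58 and 10.1% in OLs, and 4.77 and 4.97% in astrocytes. The log2 change of its share from OPCs to astrocytes was -0.88 (SE 0.093, limma adjusted p = 0.050) and that of Ala-TGC-7 was -1.01 (SE 0.14, limma adjusted p = 0.0602). In the same libraries Ala-TGC-2/3 held 49.8 and 53.4% of the pool in astrocytes, against 40.2 to 47.4% in OPCs, and the log2 change of that share was 0.22 (SE 0.092, limma adjusted p = 0.272). Limma called 0 of the 14 shares in this comparison, and 0% of the 184 tested. At an unadjusted p under 0.05 it counted 2 of 14 against 23.4% of all. The mean of the whole Ala-TGC pool in astrocytes was 0.888 of that in OPCs.

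**Figure D4:**
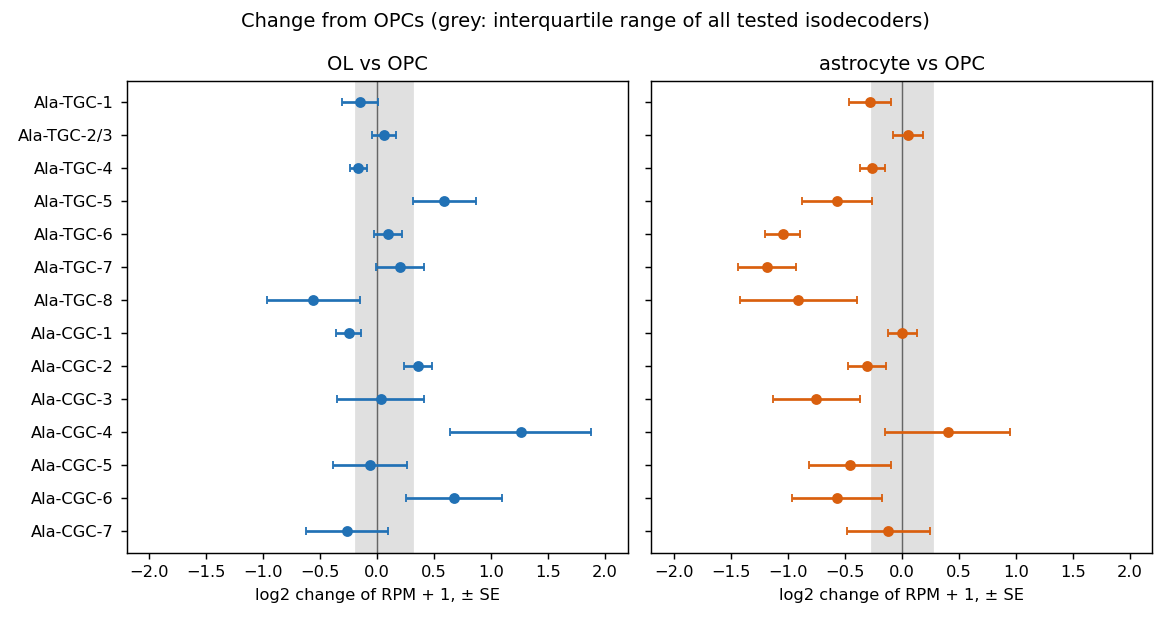
The log2 change of RPM + 1 from OPCs to OLs (left) and to astrocytes (right) for each isodecoder, with its standard error from limma; the grey band spans the interquartile range of all 192 isodecoders tested. In astrocytes Ala-TGC-6 and Ala-TGC-7 lie at -1.05 and -1.19, outside the band, and Ala-CGC-1 lies at 0.0038.

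In all, 4 of the 14 isodecoders were below all OPC libraries in both astrocyte libraries (28.6%, against 22.9% of all isodecoders). These were Ala-TGC-4, Ala-TGC-5, Ala-TGC-6 and Ala-TGC-7. The median log2 change from OPCs to astrocytes was -0.38 over the 14 and 0.013 over all isodecoders. The 6 isodecoders with few reads weigh in that median as much as the abundant ones. The difference of Ala-TGC-6 and Ala-TGC-7 between OLs and astrocytes was also known when these tRNAs were chosen. Both comparisons share the OPC libraries.

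In OLs set beside astrocytes, the abundant isodecoders with the widest gap were Ala-TGC-6 and Ala-CGC-2. Ala-TGC-6 in OLs was 2.21 times and Ala-TGC-7 2.67 times the astrocyte mean, with log2 differences of 1.14 and 1.39. Ala-TGC-5 was 2.32 times and Ala-CGC-2 1.57 times the astrocyte mean, and Ala-CGC-1 was 0.839 times. Over the 14 isodecoders, 9 were higher in both OL libraries than in both astrocyte libraries (40.6% of all isodecoders were) and 1 was lower (19.8% of all). Nothing is read from these counts, since this contrast entered the choice.

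The least abundant isodecoders were near the counting floor. Ala-CGC-4 had 1, 0 and 6 reads in OPCs, 3 and 9 in OLs and 4 and 3 in astrocytes. Ala-TGC-8 had 6, 11 and 7 reads in OPCs, 5 and 4 in OLs and 2 and 10 in astrocytes. Ala-CGC-3, Ala-CGC-5, Ala-CGC-6 and Ala-CGC-7 had 3 to 18 reads in every library. None of the 6 was called against OPCs, with limma adjusted p from 0.201 to 0.943 in OLs and from 0.301 to 0.836 in astrocytes. Ala-CGC-4 was called in OLs only with the replicate number as a term, and replicate numbers are not known pairs. The share of all isodecoders called under that setting is not given here, so nothing is read from this call.

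Outside these 2 pools, the isodecoders whose log2 levels over the 7 libraries were most like Ala-TGC-6 were Thr-CGT-1 (Pearson r = 0.914), Ser-TGA-1 (r = 0.913) and Leu-TAG-2 (r = 0.863), out of 178 compared. Those most like Ala-TGC-7 were Leu-TAG-2 (r = 0.955), Thr-CGT-1 (r = 0.936) and Ala-AGC-2 (r = 0.923), the last an alanine isodecoder with the anticodon AGC. Thr-CGT-1 was at 893 RPM in OPCs, 818 RPM in OLs and 535 RPM in astrocytes on average. Among 48 anticodon pools, those most like the Ala-TGC pool were Ser-TGA (r = 0.80), Ile-TAT (r = 0.764) and Gly-CCC (r = 0.742), and those most like the Ala-CGC pool were Ile-TAT (r = 0.847), Leu-TAG (r = 0.781) and Gly-CCC (r = 0.716). These coefficients describe 7 libraries that fall into 3 cell types and share their normalization, and carry no test.

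Isodecoders of 1 pool can differ by few bases, so reads that fit several may be misplaced, or dropped by the mapping-quality filter. The pool values are sums of the isodecoder values. How far such reads alter the division within a pool, or its total, was not tested. Reads outside the listed cytosolic tRNAs made up 3.55 to 3.90% of a library in OLs, 4.98 to 6.94% in OPCs and 7.74 to 7.88% in astrocytes. With levels rescaled to the listed cytosolic tRNAs, the log2 change from OPCs to astrocytes was -1.02 for Ala-TGC-6 and -1.17 for Ala-TGC-7, and that from OPCs to OLs was -0.29 for Ala-CGC-1 and 0.32 for Ala-CGC-2.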

How the data were processed

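Per the labels and the study's methods, RNA was deacylated, an adapter was ligated to mature tRNAs, and reads were trimmed with cutadapt, aligned with Bowtie2 to mature tRNAs of the build mm10 with identical genes joined, and counted per isodecoder with featureCounts after a mapping-quality filter. The authors scaled the reads of each tRNA to the library's total of tRNA reads, mitochondrial tRNAs included, and deposited RPM per library, for isodecoders and summed by anticodon. Deposited tables of the authors' own comparison of OPCs and OLs by DESeq2, which hold means, fold changes and p-values, were not used. The anticodon values equalled the sums of their isodecoders to within 1.02e-10 RPM.

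The RPM values were whole multiples of 1 read (tolerance 0.001 reads for 100% of values), which gave the reads behind each value. The 7 libraries had 1339021 to 2627351 assigned reads. Because the files hold RPM, limma 3.58.1 in R 4.3.3 was fitted to log2(RPM + 1) over the 192 isodecoders that averaged 1 RPM or more, or all 52 anticodons, with a variance trend and with the libraries of the 2 groups compared only. A fold change on this scale understates the change of low tRNAs. Shares were tested on the difference of log2(RPM + 1) from the pool or from all alanine tRNA, without the trend. Tests were two-sided with Benjamini-Hochberg adjustment over all features and a threshold of 0.01. Permutation tests used scipy 1.17.1. The limma step was tested on simulated data. Alternatives covered the pseudocount (0.1 and 10), the filter, scaling, the trend, the threshold, the libraries in the fit, the replicate number as a term, and leaving out each library.

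The named tRNAs are all rows of both anticodons plus, for both pools, Ala-TGC-6 and Ala-TGC-7, the 3 tRNAs with the highest Pearson r. These members and lists were chosen with earlier results of these data known. OLs were differentiated from 2 of the OPC replicates, but the sources used here do not say which OL library came from which OPC culture. The groups were fitted as independent. Limma set each change against a spread between libraries that was drawn toward that of all tRNAs fitted. RefSeq genes of GRCm38.p6, the assembly behind mm10, were placed against GENCODE gene models. The sequences of the tRNAs were not analysed here.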

Additional observations from a re-analysis of the deposited data

Results flagged for a closer look

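For 5 isodecoders and the Ala-CGC pool, both OL libraries lay above the OPC mean and both astrocyte libraries below it. The share of all isodecoders or pools with this order was not counted, so nothing is read from the number of cases. The log2 difference of OLs from astrocytes was 1.16 for Ala-TGC-5, 1.14 for Ala-TGC-6, 1.39 for Ala-TGC-7, 0.67 for Ala-CGC-2, 1.24 for Ala-CGC-6 and 0.23 for the Ala-CGC pool. The difference between the 2 changes was not tested, because earlier results of this contrast were known when the tRNAs were chosen. Ala-TGC-5 was the 1 case of the 6 in which both groups also lay outside the whole OPC range, and its values rest on 22 to 45 reads in a library. Ala-CGC-6 had 3 to 11 reads in a library.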

How the results depend on the processing

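Between OPCs and astrocytes 0 of the 14 isodecoders were called, but the count was 1 (Ala-TGC-6) with a minimum mean of 100 RPM, 1 (Ala-TGC-6) with all 7 libraries in the fit, 2 (Ala-TGC-6 and Ala-TGC-7) with median-of-ratios scaling, 2 at a threshold of 0.05, and 0 to 2 when each library was left out, with 1 without OPC replicate 1 and 2 without OPC replicate 3; the cause was not tested. At 0.05, 7.29% of all isodecoders were called between OPCs and astrocytes. Between OPCs and OLs the threshold of 0.05 gave 1 share of a pool, Ala-CGC-1, against 14.1% of all shares tested. For the other alternatives the calls over all isodecoders are not given here. The counts under them are thus not read as particular to these tRNAs. The count of isodecoders whose OL and astrocyte libraries did not overlap went from 10 to 4 with a minimum mean of 100 RPM, under which 6 of the 14 remain. With the replicate block the count was 1 between OPCs and OLs (Ala-CGC-4, with 0 to 9 reads) and 2 between OPCs and astrocytes (Ala-TGC-6 and Ala-TGC-7), and no pool or share was called. The OLs came from 2 of the 3 OPC replicates, but the sources used here do not say which, so the replicate numbers were not taken as pairs. Deviations of same-numbered libraries over 192 isodecoders correlated at 0.000153 for OPCs and OLs, 0.168 for OPCs and astrocytes and -0.294 for OLs and astrocytes. The log2 change of Ala-TGC-2/3 from OPCs to OLs (0.0574) was -0.0045 with median-of-ratios scaling and -0.0319 with the block, and that of Ala-TGC-1 was 0.0044 with the block. From OPCs to astrocytes Ala-TGC-2/3 was at -0.0399 with the block. Leaving out each library, from OPCs to OLs Ala-TGC-2/3 ranged from -0.0319 to 0.1305, Ala-TGC-1 from -0.2465 to 0.0044 and the alanine share of Ala-TGC from -0.0095 to 0.0563. From OPCs to astrocytes Ala-CGC-1 ranged from -0.0389 to 0.0310, Ala-TGC-2/3 from -0.0541 to 0.1529, the alanine share of Ala-TGC from -0.0598 to 0.0061 and that of Ala-CGC from -0.0379 to 0.0523. Of the tested changes of 8 isodecoders, 2 pools, 5 shares of a pool and 2 shares of alanine tRNA, 410 values under an alternative kept their direction and side of the threshold, 15 changed direction and 9 passed the threshold. Scaling cancels in shares, and the filter was not run for anticodons, all of which were tested. With 2 libraries of OLs and 2 of astrocytes, no difference of a pool passed the threshold after adjustment. The 95% interval lay below 0 only for the Ala-TGC pool in astrocytes (-0.33 to -0.017), before any adjustment.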
